A study of Mus musculus with 10 samples.

Results

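The genes of the actin cytoskeleton and of cell motility were compared between mature CD8 single-positive (CD8SP) and CD4 single-positive (CD4SP) thymocytes of the mouse. The set holds 50 genes, chosen by name for their role in building, turning over, crosslinking or anchoring actin filaments, of 23128 genes with a RefSeq transcript in the short-read files. All 50 were found there, and 49 reached 1 FPKM (fragments scaled to transcript length and to the mapped total) in at least 1 lineage, of 9650 such genes in all. The exception was Vcl.

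Both groups were sorted, per the labels, from the thymi of C57BL/6 mice of 6 to 8 weeks, with 2 to 3 thymi pooled for each sample. CD8SP cells were CD8+ CD4- TCRβ+ CD24- after bead depletion of cells with CD4, and CD4SP cells were CD4+ CD8- TCRβ+ CD24- after depletion of cells with CD8. Each lineage had 1 long-read PacBio library and 4 short-read samples that the labels number as lanes. These files pool the lanes and give a single value per transcript and lineage, so no difference below has a replicate check and no test was possible. In sorted populations of this kind, a smaller share of cells with a transcript and less of it in each cell cannot be told apart.

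Actin filaments grow by the addition of ATP-bound monomers, which profilin delivers and thymosin holds in reserve. The Arp2/3 complex starts branches when WASP and WAVE proteins activate it, formins and Ena/VASP proteins lengthen unbranched filaments, capping protein stops growth and cofilin with coronins takes filaments apart. In T cells this machinery drives crawling, the contact with the antigen-presenting cell and the anchoring of receptors beneath the membrane.

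Most values of the set lay close together in both lineages, and the 4 genes called were Tpm4, Tmsb4x, Tmsb10 and Myo10, of which Myo10 had the largest log2 ratio in size. The coding exons on which the splicing results turn are printed first, from GENCODE release M21 transcripts on GRCm38, 5′ to 3′ on the transcribed strand. Capitals mark the alternative exon, and the lower-case ends are the 10 adjoining bases of the neighbouring exons. The Ablim1 exons are the neighbouring exons 15 and 16 of the 26 exons of Ablim1-201, at chr19:57059085-57059204 and chr19:57051130-57051234 (minus strand). The Tpm3 exon is exon 8 of 9 of Tpm3-202, at chr3:90091013-90091091 (plus strand). The Evl exon is exon 11 of 14 of Evl-201, at chr12:108683348-108683410 (plus strand).
Ablim1 exon 15: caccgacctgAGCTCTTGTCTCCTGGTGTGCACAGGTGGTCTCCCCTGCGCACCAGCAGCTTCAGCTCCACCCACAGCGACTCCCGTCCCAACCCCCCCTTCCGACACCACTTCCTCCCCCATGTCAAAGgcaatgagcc
Ablim1 exon 16: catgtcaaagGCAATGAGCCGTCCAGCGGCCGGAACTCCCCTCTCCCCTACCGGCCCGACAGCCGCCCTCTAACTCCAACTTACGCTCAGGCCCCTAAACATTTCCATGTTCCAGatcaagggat
Tpm3 exon 8: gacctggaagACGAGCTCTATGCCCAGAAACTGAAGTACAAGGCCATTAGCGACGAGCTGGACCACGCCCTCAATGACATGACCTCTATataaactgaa
Evl exon 11: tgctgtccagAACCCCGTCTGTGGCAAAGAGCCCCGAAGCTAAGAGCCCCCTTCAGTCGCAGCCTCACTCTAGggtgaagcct

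The Ablim1 exons of 120 and 105 bases and the Evl exon of 63 bases are multiples of 3 and lie wholly in the coding sequence, so leaving them out keeps the frame. The Tpm3 exon of 79 bases is not. In Tpm3-202, which holds it, only 1 coding base lies in the last exon, while in Tpm3-201, which lacks it, 80 coding bases do. Both transcripts code for 248 amino acids, so the choice exchanges the end of the protein without changing its length.

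Tpm3 also carries a pair of mutually exclusive exons of 76 bases each. They are exon 5 of Tpm3-201, at chr3:90088401-90088476, and exon 5 of Tpm3-202, at chr3:90089048-90089123. They are printed because they share a reading frame and a length but not a sequence: 39 of the 76 positions are identical (51.3%), and capitals mark the 37 that differ.
Tpm3-201 exon 5: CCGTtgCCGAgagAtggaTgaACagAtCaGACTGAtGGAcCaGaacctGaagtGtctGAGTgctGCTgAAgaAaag
Tpm3-202 exon 5: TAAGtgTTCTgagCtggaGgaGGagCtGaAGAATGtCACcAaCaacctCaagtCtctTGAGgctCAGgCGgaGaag

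The sorted cells carried the markers of their labels. Cd4 was at 1.69 FPKM in CD8SP cells and 107 FPKM in CD4SP cells, while Cd8a was at 241 FPKM in CD8SP cells and 10.9 FPKM in CD4SP cells. All 7 T cell markers found were above 1 FPKM in both lineages. Proliferation markers summed to 94.7 FPKM in CD8SP cells and 39.2 FPKM in CD4SP cells, with 3 of 5 called higher in CD8SP. Markers of immature thymocytes summed to 26.0 FPKM in CD8SP cells and 39.2 FPKM in CD4SP cells. Of these 5, Rag1 was called higher in CD4SP, at 4.12 FPKM in CD8SP cells and 12.5 FPKM in CD4SP cells. The sums of B cell markers (5.52 FPKM in CD8SP, 0.708 FPKM in CD4SP), of myeloid markers (5.28 FPKM in CD8SP, 10.03 FPKM in CD4SP) and of red cell and platelet markers (3.91 FPKM in CD8SP, 6.14 FPKM in CD4SP) were small in both lineages. Cd79a, Pax5, Pf4 and Ppbp were at 0 in both files. Stromal, epithelial and endothelial markers summed to 15.9 FPKM in CD8SP cells and 23.6 FPKM in CD4SP cells, nearly all from Pecam1, and the part of any of these lists in the results below was not tested.

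The 50 genes together held 3.67% of the summed gene FPKM in CD8SP cells and 3.40% in CD4SP cells. The median gene of the set was at 54.3 FPKM in CD8SP cells and 50.1 FPKM in CD4SP cells, while the median of every gene with at least 1 FPKM was 7.76 FPKM in CD8SP cells and 6.69 FPKM in CD4SP cells. In CD8SP cells 15 of the 50 genes reached 100 FPKM, and in CD4SP cells 9 did, while 1.72% of all genes at 1 FPKM or more in CD8SP cells and 1.20% of those in CD4SP cells were that high. The set thus spans more than 3 orders of magnitude, with actin, the thymosin Tmsb4x and profilin at the top and Vcl, which encodes vinculin of focal adhesions, and the unconventional myosin Myo10 at the bottom.

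**Figure D1:**
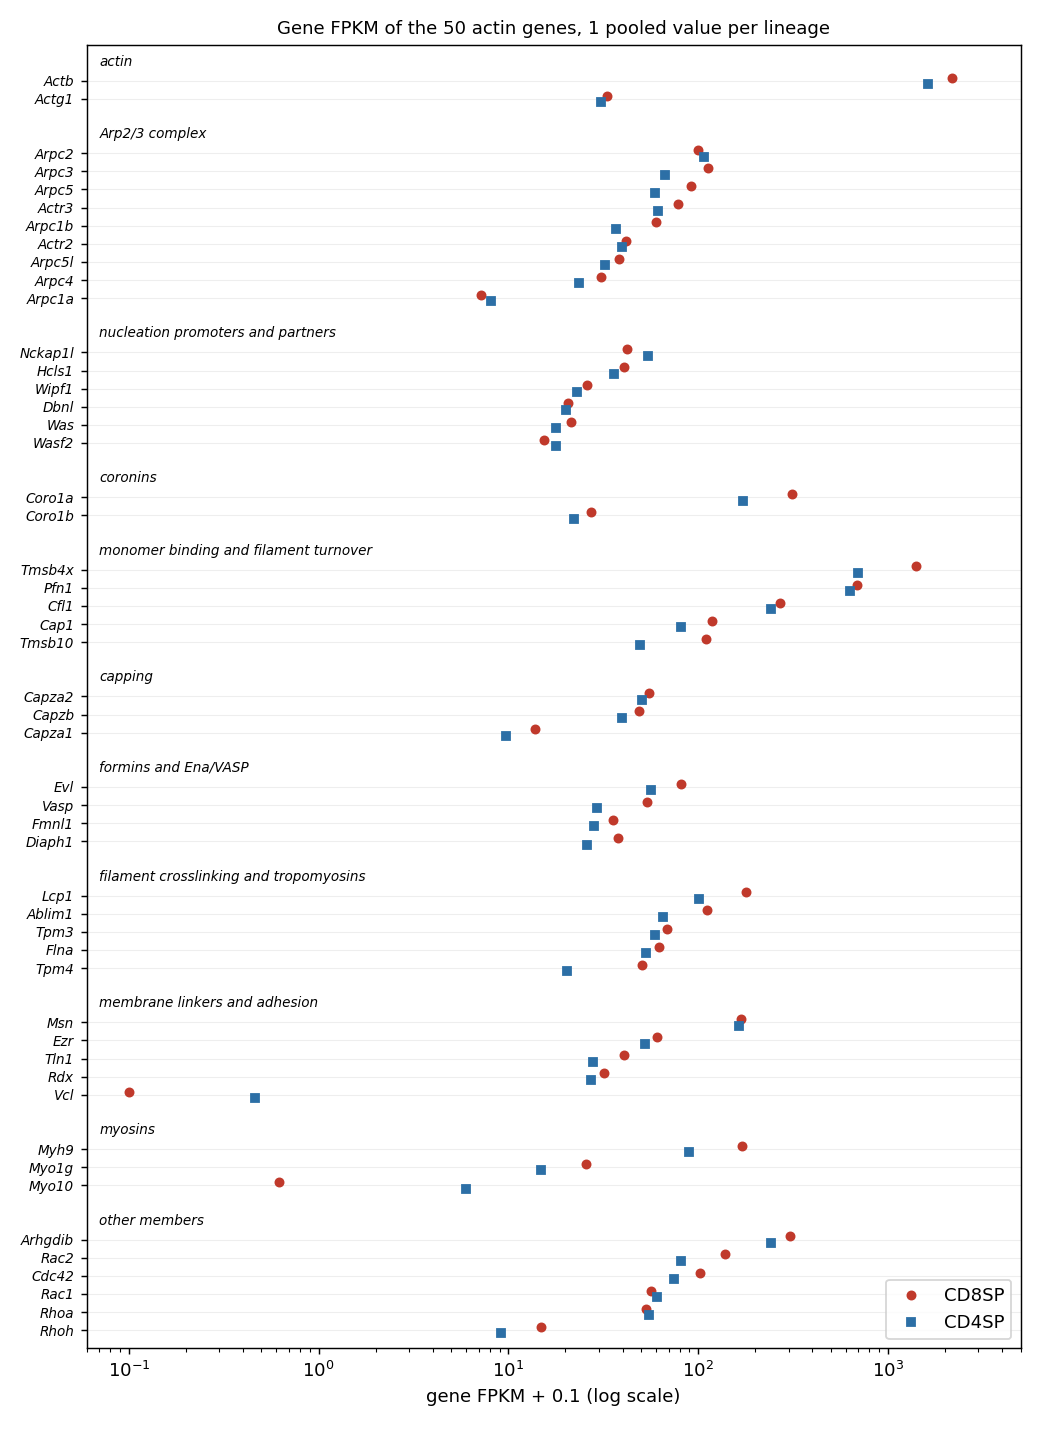
Gene FPKM plus 0.1 on a log axis for the 50 genes, grouped by role and ordered within a role by mean level. Red circles are CD8SP and blue squares CD4SP, 1 pooled value each. Vcl was listed at 0 in CD8SP cells and so stands at 0.1. Actb, Tmsb4x and Pfn1 stand at the right in both lineages, and Vcl and Myo10 stand apart at the left.

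A call needed 3 things: at least 1 FPKM in the higher lineage, a log2 ratio of CD8SP over CD4SP of 1 or more in size (0.1 added to each FPKM), and deposited intervals that do not overlap. By this rule 3 genes of the set were higher in CD8SP cells, where 10% of all genes tested were called (966 of 9650), and 1 was higher in CD4SP cells, where 4.76% were called. The other 45 tested genes were not called. The calls were 6.12% of the tested genes of the set towards CD8SP and 2.04% towards CD4SP. With a minimum of 5 FPKM the calls in the set stayed at 3 and 1. The shares over all genes were then 8.56% towards CD8SP and 2.49% towards CD4SP. With so few calls, no difference between the set and all genes is read from these shares.

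The smaller differences leaned towards CD8SP. The log2 ratio was above 0 for 42 of the 49 genes (85.7%) with a median of 0.32, while over all genes 65.6% were above 0 with a median of 0.22. Shifting all ratios by 0.21, so that the median of genes at 1 FPKM or more in both libraries is 0, left 32 of 49 above 0 (65.3%) with a median of 0.10 in the set, against 50.3% and 0.00 over all genes. After this shift 1 gene of the set was called in each direction, while 7.03% of all genes passed towards CD8SP and 6.68% towards CD4SP. The exon-based value takes every transcript of 200 bases or more that overlaps the RefSeq exons of a gene, weighted by the exon bases it covers. It thus includes transcripts left out of the gene sum, such as single-exon ones, and its calls used no interval rule. By this value there was again 1 in each direction (7.51% of all genes towards CD8SP and 3.4% towards CD4SP). With RefSeq transcripts alone 4 genes of the set passed towards CD8SP and 1 towards CD4SP (15.1% of all genes towards CD8SP and 5.46% towards CD4SP). The median log2 ratio was then 0.33 in the set and 0.31 over all genes, with 83.3% of the set and 71.4% of all genes above 0. Over all genes at 5 FPKM or more, nearer in level to the set, 69.1% were above 0 with a median of 0.24.

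**Figure D2:**
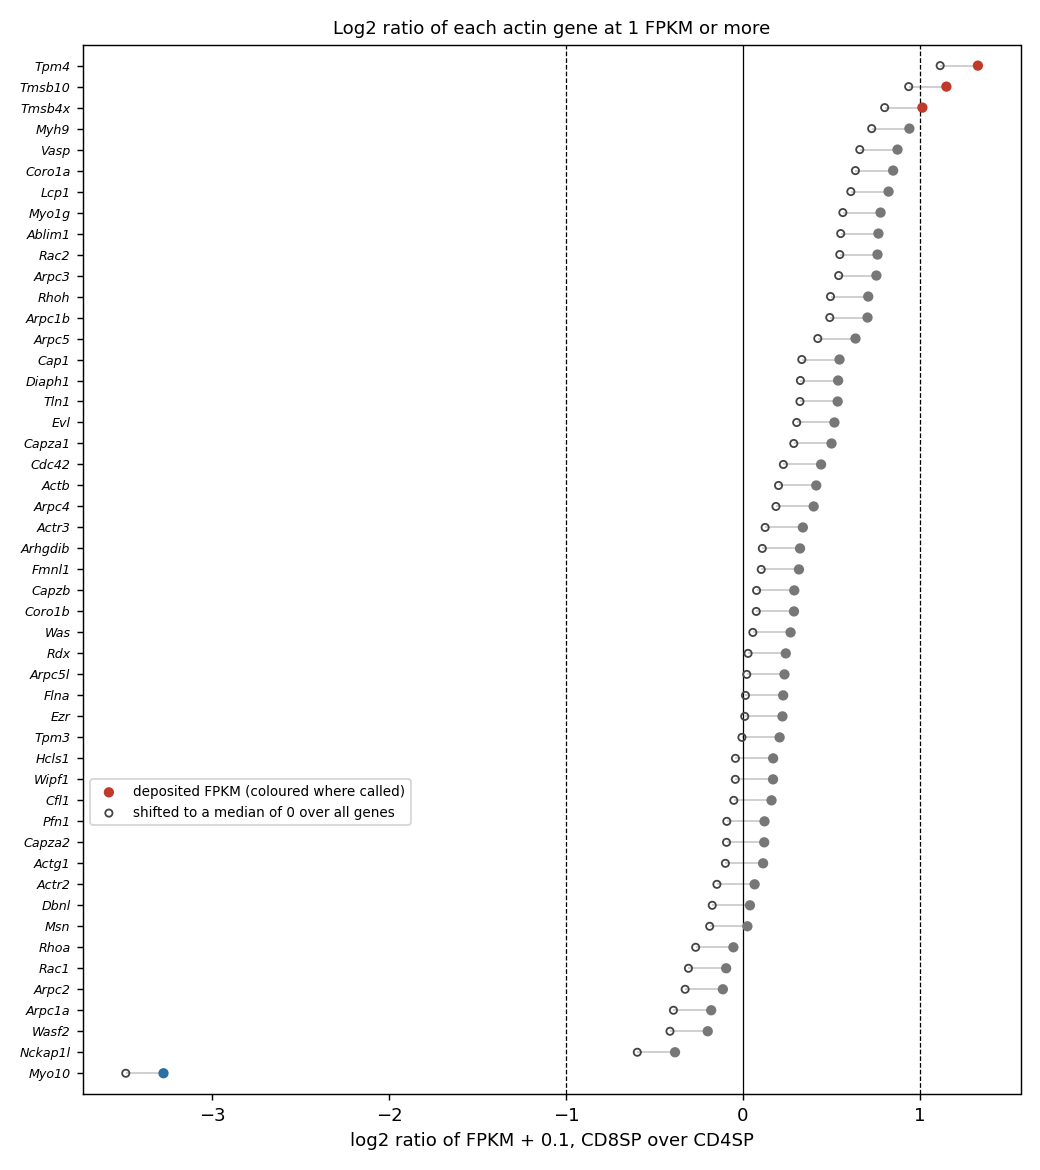
Log2 ratio of CD8SP over CD4SP for the 49 genes at 1 FPKM or more, ordered from high to low. Filled points use the deposited FPKM and are red where called higher in CD8SP, blue where called higher in CD4SP and grey otherwise, and open circles are shifted to a median of 0 over all genes. Dashed lines mark a ratio of 1 in size. Tpm4 and Myo10 stay beyond the dashed lines after the shift, while Tmsb10 and Tmsb4x do not.

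Actb, the cytoplasmic β-actin, was at 2175 FPKM in CD8SP cells and 1632 FPKM in CD4SP cells, a log2 ratio of 0.41. It ranked 4 among all genes in CD8SP cells and 5 in CD4SP cells. Actg1, the cytoplasmic γ-actin that differs from β-actin by a few residues, was at 33.1 FPKM in CD8SP cells and 30.6 FPKM in CD4SP cells. The actins are so alike, and have so many processed copies in the genome, that reads may have been divided between them in counting, and the levels of Actb and Actg1 are uncertain for that reason. The same holds for Tmsb4x, Tmsb10, Cfl1 and Pfn1, whose short messages also have near-identical copies.

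The monomer-binding and turnover genes held 2 of the 3 genes called higher in CD8SP. Tmsb4x, which encodes the monomer-sequestering thymosin β4, was at 1405 FPKM in CD8SP cells (interval 1397 to 1451) and 695 FPKM in CD4SP cells (695 to 717), 2.02-fold higher in CD8SP. That sum rests on an assembled transcript: its RefSeq transcript was at 842 FPKM in CD8SP cells and 695 FPKM in CD4SP cells, and a further form of the same 3 exons, 551 bases long, was listed at 563 FPKM in CD8SP alone. With the RefSeq transcript alone the log2 ratio of Tmsb4x was 0.28, and by the exon-based value it was 0.90. Neither would be called, nor would the shifted ratio of 0.80.

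Tmsb10, the related thymosin β10, was at 110 FPKM in CD8SP cells (106 to 115) and 49.5 FPKM in CD4SP cells (46.5 to 52.6), 2.22-fold higher in CD8SP. Its RefSeq transcripts divided the signal differently: the 3-exon form was at 85.1 FPKM in CD8SP cells and 28.1 FPKM in CD4SP cells, while the 2-exon form was at 15.95 FPKM in CD8SP cells and 21.3 FPKM in CD4SP cells. The higher total in CD8SP thus came mostly from the 3-exon form. The call was lost after the shift, at a log2 ratio of 0.94, and by the exon-based value, at 0.84.

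The remaining genes of this role lay closer together. Pfn1, profilin, which charges monomers and feeds them to growing ends, was at 687 FPKM in CD8SP cells and 631 FPKM in CD4SP cells. Cfl1, cofilin, which severs filaments, was at 270 FPKM in CD8SP cells and 242 FPKM in CD4SP cells. Cap1, a partner of cofilin in recycling monomers, was at 118 FPKM in CD8SP cells and 80.9 FPKM in CD4SP cells. For Pfn1 and Cfl1 the shift turned the log2 ratio below 0, to -0.09 and -0.05.

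All 9 genes of the Arp2/3 complex were expressed in both lineages and none was called. Their levels ran from 7.09 FPKM (Arpc1a) to 113 FPKM (Arpc3) in CD8SP cells and from 8.04 FPKM (Arpc1a) to 107 FPKM (Arpc2) in CD4SP cells, with 7 of 9 log2 ratios above 0 and a median of 0.34. The alternative versions of a subunit differed in level: Arpc1b was at 59.9 FPKM in CD8SP cells and 36.7 FPKM in CD4SP cells, many times the level of Arpc1a in both. Arpc5 was at 91.8 FPKM in CD8SP cells and 59.0 FPKM in CD4SP cells, above Arpc5l at 38.1 FPKM in CD8SP cells and 32.4 FPKM in CD4SP cells. Arpc3 and Arpc1b had the highest ratios of the complex, at 0.75 and 0.70.

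Actr3, which encodes the actin-related subunit Arp3, was at 77.8 FPKM in CD8SP cells and 61.5 FPKM in CD4SP cells, and Actr2, for its partner Arp2, was at 41.7 FPKM in CD8SP cells and 39.8 FPKM in CD4SP cells. Neither total was called. The transcripts of Actr3, however, changed places. NM_023735, in which the first intron is kept as exon, was at 38.2 FPKM in CD8SP cells and 9.18 FPKM in CD4SP cells, and NM_001205386, in which it is removed, was at 13.4 FPKM in CD8SP cells and 29.6 FPKM in CD4SP cells.

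The activators of Arp2/3 and their partners ranged from 15.4 to 41.9 FPKM in CD8SP cells and from 17.7 to 54.6 FPKM in CD4SP cells, and none of the 6 was called. Was, the Wiskott-Aldrich syndrome protein, was at 21.4 FPKM in CD8SP cells and 17.7 FPKM in CD4SP cells, and its stabilising partner Wipf1 was at 25.8 FPKM in CD8SP cells and 22.9 FPKM in CD4SP cells. Hcls1, the cortactin relative of blood cells, was at 40.6 FPKM in CD8SP cells and 36.1 FPKM in CD4SP cells, and Dbnl at 20.5 FPKM in CD8SP cells and 19.95 FPKM in CD4SP cells. Wasf2, a WAVE protein, and Nckap1l, the haematopoietic subunit of the WAVE complex, had ratios below 0, at -0.20 and -0.38. Nckap1l was at 41.9 FPKM in CD8SP cells and 54.6 FPKM in CD4SP cells, but by RefSeq transcripts alone its log2 ratio was 0.06 and by the exon-based value 0.17. After the shift 5 of the 6 ratios of this role were below 0.

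Coro1a, the coronin of leukocytes, needed for the survival and migration of naive T cells, was at 312 FPKM in CD8SP cells and 173 FPKM in CD4SP cells, a log2 ratio of 0.85. Coro1b was much lower, at 27.1 FPKM in CD8SP cells and 22.2 FPKM in CD4SP cells. The 3 genes of capping protein, Capza1, Capza2 and Capzb, ranged from 13.7 to 55.2 FPKM in CD8SP cells and from 9.65 to 50.8 FPKM in CD4SP cells. Their ratios were all above 0, and the shift left that of Capza2 at -0.09.

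Formins and Ena/VASP proteins, which lengthen filaments, all had ratios above 0 also after the shift. Evl was at 80.7 FPKM in CD8SP cells and 56.3 FPKM in CD4SP cells, and Vasp at 53.4 FPKM in CD8SP cells and 29.1 FPKM in CD4SP cells, the closest of this role to the rule at a log2 ratio of 0.87. Diaph1 was at 37.6 FPKM in CD8SP cells and 25.8 FPKM in CD4SP cells, and Fmnl1 at 35.3 FPKM in CD8SP cells and 28.3 FPKM in CD4SP cells. For Diaph1 assembled transcripts gave 74.3% of the CD8SP value and 56.3% of the CD4SP value, and with its RefSeq transcript alone the ratio was -0.22.

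Among the filament-binding proteins, Tpm4 was called. Tpm4 encodes a tropomyosin, a coiled-coil protein that lies along the filament and governs access of myosin and cofilin. It was at 50.8 FPKM in CD8SP cells (49.1 to 53.1) and 20.2 FPKM in CD4SP cells (19.6 to 21.4), 2.52-fold higher in CD8SP. The call held for the RefSeq transcript alone (log2 ratio 1.13), for the exon-based value (1.08) and after the shift (1.12). It was the only gene of the set called higher in CD8SP under all 7 alternatives tried.

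Tpm3, the other tropomyosin of the set, was at 68.1 FPKM in CD8SP cells and 58.9 FPKM in CD4SP cells, a log2 ratio of 0.21 that was -0.01 after the shift. Lcp1, L-plastin, which bundles filaments in leukocytes, was at 178 FPKM in CD8SP cells and 101 FPKM in CD4SP cells. Flna, filamin A, a crosslinker of filament networks, was at 62.1 FPKM in CD8SP cells and 53.1 FPKM in CD4SP cells. None of these was called.

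Ablim1, an actin-binding LIM protein, was at 111 FPKM in CD8SP cells and 65.4 FPKM in CD4SP cells. In CD8SP cells 97.1% of that value came from assembled transcripts, against 25.8% in CD4SP cells. The RefSeq transcripts alone summed to 3.22 FPKM in CD8SP cells and 48.6 FPKM in CD4SP cells, a log2 ratio of -3.87. The exon-based value was 65.1 FPKM in CD8SP cells and 54.7 FPKM in CD4SP cells. The direction of the Ablim1 difference thus depended on which transcripts were summed, and its level in CD8SP cells rests on assembled forms. No assembled transcript of any gene of the set was identical in both files, so these forms have no match in CD4SP.

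Genes that tie filaments to the membrane had log2 ratios from 0.03 to 0.54 where they reached 1 FPKM, and none was called. Msn, moesin, was at 168 FPKM in CD8SP cells and 165 FPKM in CD4SP cells, the flattest ratio of the 10 most abundant genes of the set at 0.03. Ezr, ezrin, was at 60.8 FPKM in CD8SP cells and 52.1 FPKM in CD4SP cells, and Rdx, radixin, at 32.0 FPKM in CD8SP cells and 27.01 FPKM in CD4SP cells. Tln1, talin, which links integrins to actin, was at 40.5 FPKM in CD8SP cells and 27.9 FPKM in CD4SP cells. Vcl, which strengthens that link, was listed at 0 in CD8SP cells and at 0.362 FPKM in CD4SP cells, below the minimum for a call.

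The myosins held both directions. Myh9, the heavy chain of non-muscle myosin IIA that contracts the cell rear, was at 171 FPKM in CD8SP cells and 89.1 FPKM in CD4SP cells, a log2 ratio of 0.94 just below the rule. With its RefSeq transcript alone the ratio was 0.28. Myo1g, a membrane-bound class I myosin of leukocytes, was at 25.5 FPKM in CD8SP cells and 14.8 FPKM in CD4SP cells.

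Myo10, the myosin of filopodia tips, was the gene called higher in CD4SP, at 0.518 FPKM in CD8SP cells (0.288 to 0.770) and 5.89 FPKM in CD4SP cells (3.92 to 7.85), 11.4-fold higher in CD4SP. Its RefSeq transcript was at 0 in CD8SP cells and 0.756 FPKM in CD4SP cells, and assembled transcripts gave 87.2% of the CD4SP value. By the exon-based value it was at 0.165 FPKM in CD8SP cells and 1.61 FPKM in CD4SP cells, 9.73-fold higher in CD4SP. The direction was the same under all 7 alternatives, and the call was lost only for RefSeq transcripts alone, where the gene stayed below 1 FPKM.

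Rac2 was at 138 FPKM in CD8SP cells and 81.6 FPKM in CD4SP cells. In CD4SP cells 52.5 FPKM of it stood on an assembled transcript that begins and ends within 10 bases of the RefSeq one. With the RefSeq transcript alone, at 134 FPKM in CD8SP cells and 23.2 FPKM in CD4SP cells, the log2 ratio would be 2.52 in place of 0.76. Cdc42 was at 102 FPKM in CD8SP cells and 74.8 FPKM in CD4SP cells. Rac1 and Rhoa had ratios of -0.09 and -0.05, and Rhoh was at 14.8 FPKM in CD8SP cells and 9.01 FPKM in CD4SP cells.

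Arhgdib was at 303 FPKM in CD8SP cells and 242 FPKM in CD4SP cells. Its deposited intervals had the opposite order, 298 to 315 in CD8SP cells and 369 to 381 in CD4SP cells. With its RefSeq transcript alone the log2 ratio was -0.53. The intervals were apart in the order opposite to the FPKM also for Pfn1, Hcls1, Ezr and Rhoa. For 21 genes of the set in CD8SP cells and 18 in CD4SP cells the summed FPKM lay outside its own summed interval, Actb, Pfn1 and Cfl1 among them, so the intervals are an incomplete measure of error. Over the set, 309 assembled spliced transcripts were added to 73 RefSeq transcripts, and only 24 of them had a chain of introns found in both files. Assembled transcripts gave a median of 9.62% of a gene's FPKM in CD8SP cells and 11.7% in CD4SP cells.

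**Figure D3:**
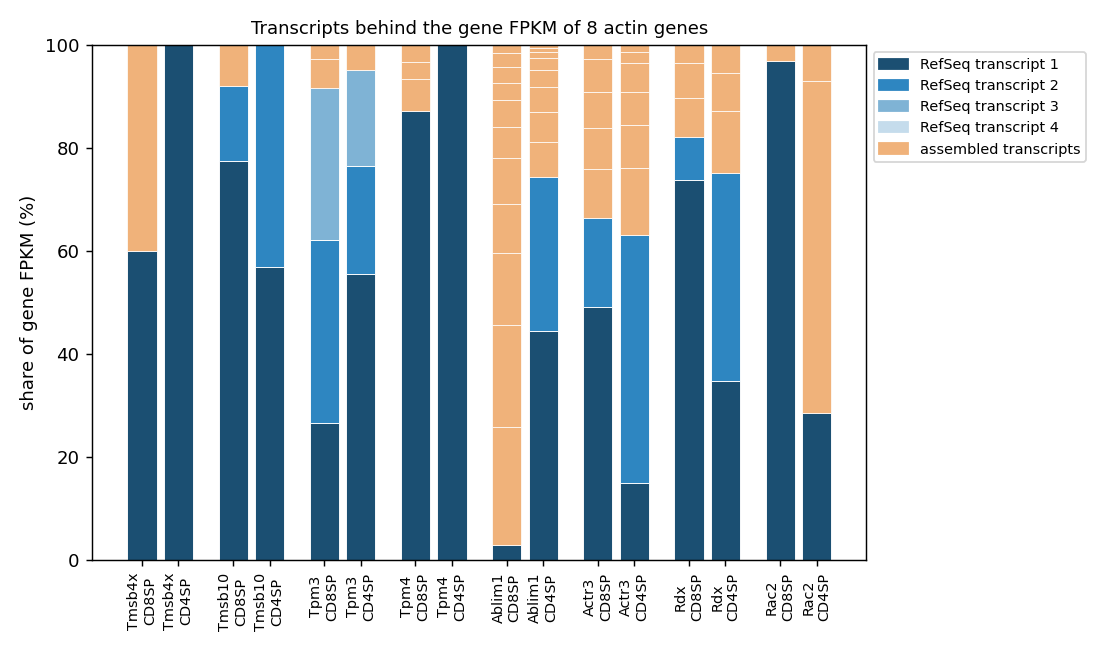
Share of gene FPKM, in percent, given by each RefSeq transcript (blue shades) and by assembled transcripts (orange) for 8 genes of the set, with CD8SP left of CD4SP in each pair. In Ablim1 nearly the whole CD8SP bar is orange, while in Rac2 the larger orange share is in CD4SP.

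Splicing was then compared by PSI, the FPKM of transcripts with one form of an event as a percent of transcripts with either form. RefSeq transcripts of the set define 19 events, of which 17, in 10 genes, had at least 1 FPKM in both lineages. A difference of 20 points or more was called in 5 events of 4 genes (29.4%), while 17.5% of all annotated events were called. The 5 events lie in Actr3, Ablim1, Tpm3 and Rdx, and the pair in Actr3 shares an intron and is not independent. In 4 of the other events 1 form was at 0 in both lineages, in Arpc4, Capzb and Cdc42.

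Exon 15 of Ablim1, printed above, was included at 17.2% in CD8SP cells and 54.7% in CD4SP cells. The transcripts that speak to it held only 16.8% of the gene's FPKM in CD8SP cells and 81.1% in CD4SP cells. Read from the summed FPKM over the exon as a percent of the exons beside it, the values were 18.2% in CD8SP cells and 50.02% in CD4SP cells. RefSeq transcripts alone gave the reverse, 100% in CD8SP cells and 59.8% in CD4SP cells, since the CD8SP form that lacks the exon is an assembled one. The neighbouring exon 16 was included at 27.1% in CD8SP cells and 76.8% in CD4SP cells, counted only over transcripts that lack exon 15. Its included form, at 15.5 FPKM in CD8SP cells and 24.0 FPKM in CD4SP cells, is the skipped form in the exon 15 value. Transcripts without both exons, at 41.7 FPKM in CD8SP cells and 7.24 FPKM in CD4SP cells, enter the exon 16 value only. Neither percent is thus the inclusion of its exon over the whole gene.

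In Tpm3, exon 8 was included at 31.1% in CD8SP cells and 55.6% in CD4SP cells, over transcripts that held 94.3% of the gene FPKM in CD8SP cells and 100% in CD4SP cells. The form with the exon, NM_001271764, was at 18.1 FPKM in CD8SP cells and 32.7 FPKM in CD4SP cells. Both RefSeq forms without it were higher in CD8SP: NM_001253738 was at 24.1 FPKM in CD8SP cells and 12.4 FPKM in CD4SP cells, and NM_001253740 at 20.1 FPKM in CD8SP cells and 10.9 FPKM in CD4SP cells. RefSeq transcripts alone gave 29.0% in CD8SP cells and 58.4% in CD4SP cells, and the signal over the exon relative to its neighbours gave 34.2% in CD8SP cells and 59.99% in CD4SP cells. The direction and the call were the same in each.

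The mutually exclusive exons of Tpm3 differed less. The exon of Tpm3-201 made up 68.6% in CD8SP cells and 81.4% in CD4SP cells, a difference of -12.8 points that was not called. In both lineages it was the more abundant of the pair. The signal over the exons themselves gave 66.6% in CD8SP cells and 77.2% in CD4SP cells.

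The Actr3 intron lies before the coding sequence, at chr1:125435458-125435652 on the minus strand, upstream of the coding start at position 125435328. It was retained at 67.0% in CD8SP cells and 33.9% in CD4SP cells. Measured against a 5′ splice site 3 bases away, retention was 79.9% in CD8SP cells and 57.6% in CD4SP cells. The signal over the intron relative to the exons beside it was 57.7% in CD8SP cells and 34.0% in CD4SP cells. All these values were higher in CD8SP by more than 20 points. The annotated transcript Actr3-202 starts inside this intron, and the part of such starts in these values was not tested. The call against the nearby 5′ splice site was lost with RefSeq transcripts alone, since its spliced form drew its FPKM from assembled transcripts.

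Rdx differed in its first exon, which is non-coding in both forms. The first exon that ends at position 52048432 of chromosome 9 made up 82.2% in CD8SP cells and 46.2% in CD4SP cells, and an exon further upstream made up the rest. NM_009041, with the downstream exon, was at 23.6 FPKM in CD8SP cells and 9.37 FPKM in CD4SP cells. NM_001104616, with the upstream exon, was at 2.63 FPKM in CD8SP cells and 10.9 FPKM in CD4SP cells. The gene total of Rdx had a log2 ratio of 0.24.

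Evl exon 11, in the gene of an Ena/VASP protein, was included at 56.7% in CD8SP cells and 67.7% in CD4SP cells, which was not called. Its downstream first exon made up 87.8% in CD8SP cells and 74.8% in CD4SP cells. Fmnl1 kept an exon of 99 bases at 3.62% in CD8SP cells and 3.82% in CD4SP cells. These values lay within 20 points of each other.

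Dbnl, an adaptor that binds filaments and joins them to endocytosis, had 3 neighbouring 3′ splice sites within 12 coding bases of exon 8 of Dbnl-201, at chr11:5797275-5797286 (plus strand). Capitals mark the bases that the sites gain or lose.
Dbnl exon 8 start: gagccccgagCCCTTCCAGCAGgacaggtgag
The site furthest upstream carried 2.29 FPKM in CD8SP cells and 1.28 FPKM in CD4SP cells, the middle one 6.78 FPKM in CD8SP cells and 5.72 FPKM in CD4SP cells, and the one furthest downstream 11.4 FPKM in CD8SP cells and 11.2 FPKM in CD4SP cells. The order of the sites was the same in both lineages, and none of their PSI differences reached 10 points.

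**Figure D4:**
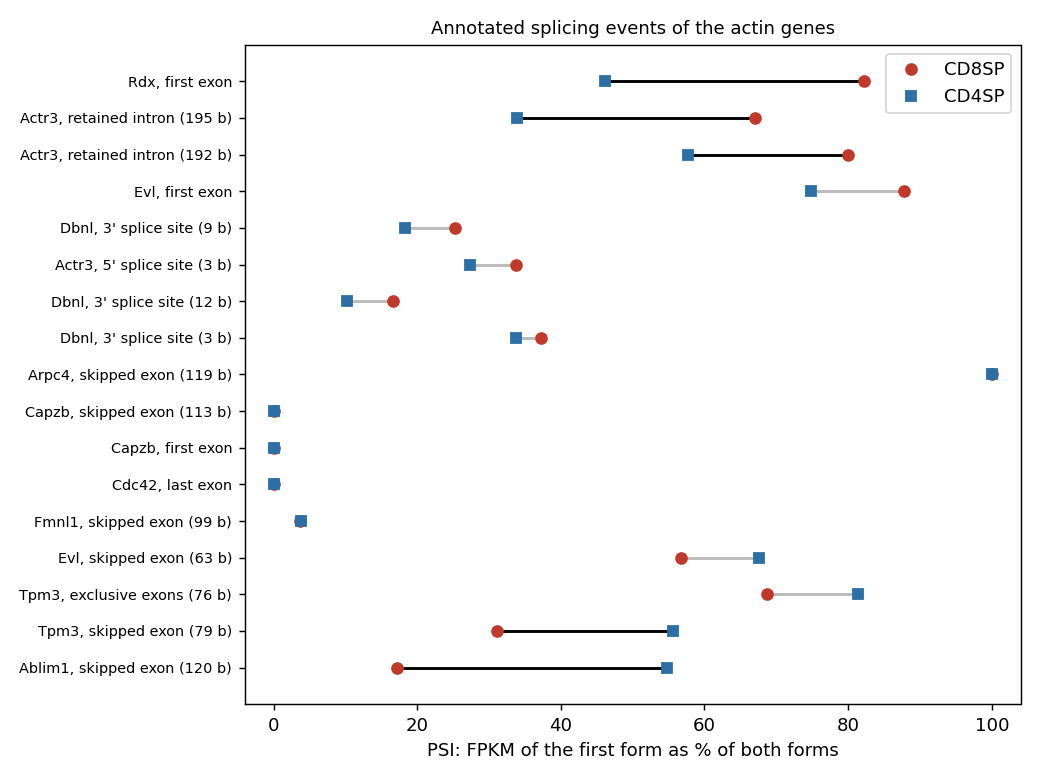
PSI in percent for the 17 annotated events, with CD8SP as red circles and CD4SP as blue squares, ordered by the difference from CD8SP higher to CD4SP higher. Black lines join the 5 called events and grey lines the others. Rdx and Actr3 stand at the top, with the higher PSI in CD8SP, and Ablim1 and Tpm3 exon 8 at the bottom.

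Events that also use assembled transcripts were read only where both forms were present in both files. Of 126 such events of the set, 13 in 6 genes were called (10.3%), close to the 11.9% of all such events. Beside the events above, they added events in Wipf1 and Myo1g and further ones in Ablim1. In Ablim1 the intron at chr19:57049510-57051129 was retained at 28.5% in CD8SP cells and 5.30% in CD4SP cells. Another, at chr19:57047072-57049461, was retained at 85.3% in CD8SP cells and 63.7% in CD4SP cells. The upstream of a pair of 3′ splice sites at chr19:57047070-57047071 made up 31.2% in CD8SP cells and 82.8% in CD4SP cells. This pair held 4.90% of the gene FPKM in CD8SP cells and 4.04% in CD4SP cells. A first exon of Wipf1 made up 33.4% in CD8SP cells and 56.8% in CD4SP cells, over transcripts that held 29.7% of the gene FPKM in CD8SP cells and 25.2% in CD4SP cells. An intron of Myo1g at chr11:6517198-6517851 was retained at 17.1% in CD8SP cells and 55.8% in CD4SP cells, and another at chr11:6516865-6517097 at 48.9% in CD8SP cells and 69.9% in CD4SP cells. A choice of 3′ splice site in Myo1g, at chr11:6517198-6517618, was also called, at 36.3% in CD8SP cells and 59.5% in CD4SP cells. These Myo1g events rest on a small part of the gene. The transcripts behind the first intron held 11.6% of the gene FPKM in CD8SP cells and 15.4% in CD4SP cells. Those behind the second held 22.4% in CD8SP cells and 21.4% in CD4SP cells, and those behind the splice site 15.0% in CD8SP cells and 16.8% in CD4SP cells. Measured to the splice sites that carry most of the Myo1g FPKM, the second intron, at chr11:6516865-6517086, was retained at 14.6% in CD8SP cells and 17.0% in CD4SP cells. The first was divided there by an exon into introns at chr11:6517624-6517851, retained at 2.88% in CD8SP cells and 12.3% in CD4SP cells, and at chr11:6517198-6517569, retained at 11.5% in CD8SP cells and 12.4% in CD4SP cells. None of these was called.

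In the long-read libraries each isoform is listed without a read count, so isoforms were counted. The set gave 100 of 9476 isoforms in CD8SP cells (1.06%, exact Clopper-Pearson 95% interval 0.859 to 1.28) and 81 of 8289 in CD4SP cells (0.977%, 0.777 to 1.21). The intervals cover counting error only, and they overlap. They came from 39 genes of the set in CD8SP cells and 29 in CD4SP cells. Of the 50 genes, 27 were found in both libraries, 12 in CD8SP alone, 2 in CD4SP alone (Coro1a and Rhoh) and 9 in neither. The CD8SP library was also the larger over all genes, with isoforms of 3602 annotated genes against 3031 in CD4SP. The same split was not counted over all genes, so it is not read as a trait of the set.

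The genes in neither library were Arpc3, Was, Wipf1, Hcls1, Coro1b, Capza2, Vcl, Myo10 and Rac2. Several are abundant in the short reads, Rac2 at 138 and Arpc3 at 113 FPKM in CD8SP cells, and their median mean level was 24.6 FPKM, against 56.5 FPKM for the genes that were found. Absence from the long-read tables therefore does not show absence of the transcript. Pfn1, at 687 FPKM in CD8SP cells and 631 FPKM in CD4SP cells by short reads, was listed in CD8SP alone, and Coro1a, higher by short reads in CD8SP, was listed in CD4SP alone.

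Isoforms of the set had more than 1 exon in 62.0% of cases in CD8SP cells (51.7 to 71.5) and 60.5% in CD4SP cells (49.0 to 71.2), against 45.7% in CD8SP cells (44.5 to 46.9) and 43.3% in CD4SP cells (42.0 to 44.6) over all isoforms that are neither antisense nor intergenic, classes the set cannot hold. Full matches to an annotated transcript made up 16% in CD8SP cells (9.43 to 24.7) and 9.88% in CD4SP cells (4.36 to 18.5), against 11.7% in CD8SP cells (10.9 to 12.5) and 11.2% in CD4SP cells (10.4 to 12.1) over the same isoforms, and the intervals overlap. Isoforms whose genomic sequence after the 3′ end is 60% or more A made up 35.0% in CD8SP cells and 34.6% in CD4SP cells, against 47.4% in CD8SP cells and 51.4% in CD4SP cells over the same isoforms. Without them the set made up 1.72% of all remaining isoforms in CD8SP cells and 1.78% in CD4SP cells.

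Tpm3 had the most isoforms, 14 in CD8SP cells and 16 in CD4SP cells, of which 13 in CD8SP and 15 in CD4SP were spliced. In both libraries the single full match was to Tpm3-201, the form without exon 8, with the predicted open reading frame of 248 codons. Incomplete matches numbered 2 in CD8SP cells, to Tpm3-201, and 3 in CD4SP cells. Of those in CD4SP cells, the isoform of 2302 bases (5 exons) was matched to Tpm3-202, the form with exon 8. Isoforms of the category for splice sites outside the annotation numbered 3 in CD8SP cells and 7 in CD4SP cells. Those predicted to be degraded by nonsense-mediated decay numbered 1 in CD8SP cells and 5 in CD4SP cells. Only Tpm3 isoforms with a predicted open reading frame carry such a prediction, and most in both libraries had none. The CD8SP isoforms of 1904 bases (5 exons) and 1978 bases (6 exons) had no prediction. The CD4SP isoforms of 1902 bases (5 exons) and 1983 bases (6 exons) were predicted to be degraded. With so many predictions missing, no difference between the lineages is read from these counts.

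Ablim1 and Actr2 each had 7 isoforms in CD8SP cells and 6 in CD4SP cells, and 4 of the 7 Ablim1 isoforms and all 7 of Actr2 in CD8SP cells were single-exon. None of the Ablim1 isoforms was a full match. Evl and Wasf2 each had 5 isoforms in CD8SP cells and 4 in CD4SP cells. Arpc5 stood on the other side, with 2 isoforms in CD8SP cells and 6 in CD4SP cells. Actr3 was listed in CD8SP alone, with 2 isoforms, 1 of them a full match to Actr3-202, whose first exon begins inside the intron described above, at position 125435547.

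**Figure D5:**
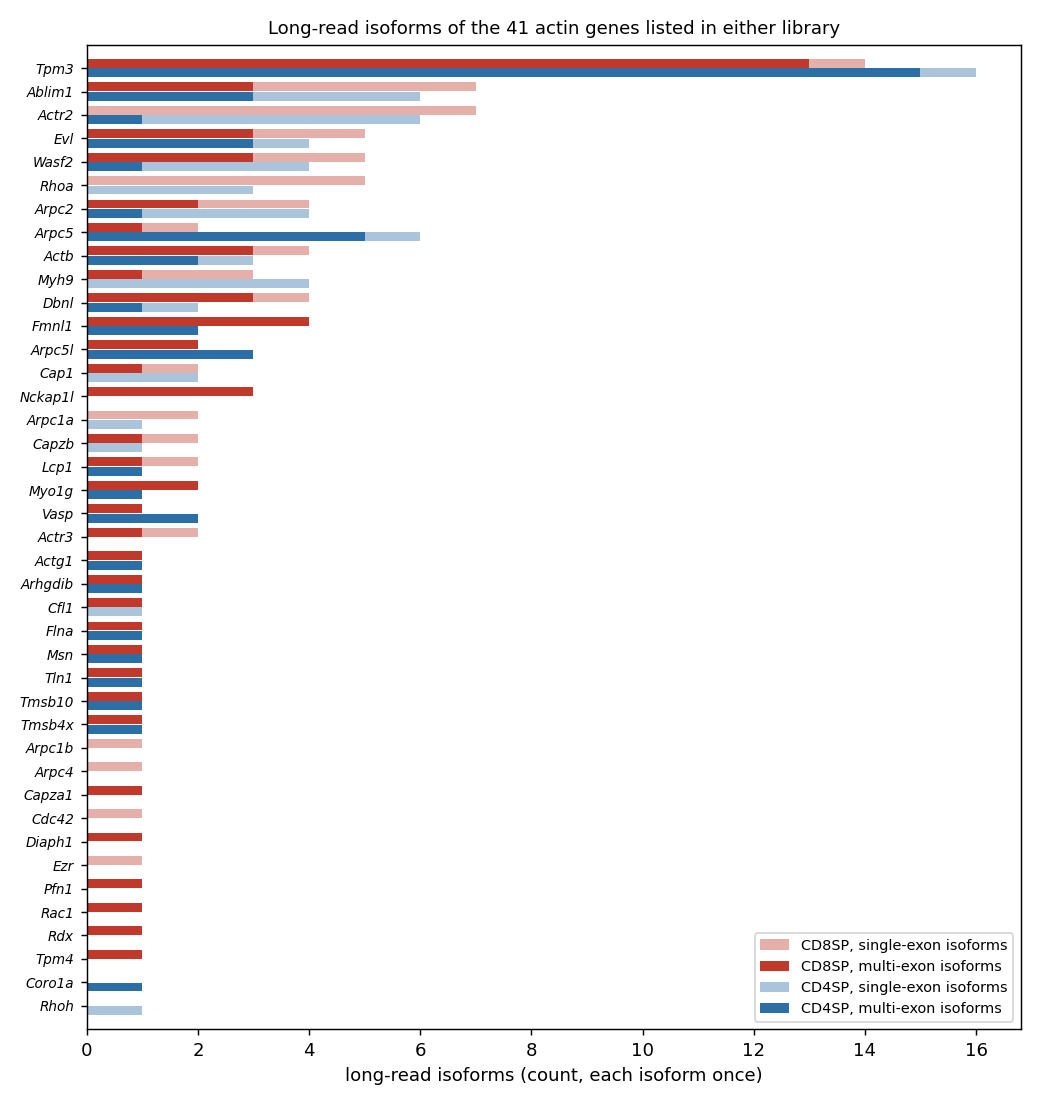
Number of long-read isoforms of the 41 genes found in either library, with CD8SP (red) above CD4SP (blue) and single-exon isoforms in the lighter shade. Tpm3 stands apart with 14 isoforms in CD8SP and 16 in CD4SP, and most genes have 1 or 2.

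A fixed list of 88 further actin genes was read for comparison, of which 72 reached 1 FPKM. Of these, 5 were called in each direction, 6.94% of those tested, beside 10% of all genes towards CD8SP and 4.76% towards CD4SP, and the median log2 ratio was 0.22, as over all genes. Higher in CD8SP were Cotl1, a coactosin that binds filaments (152 FPKM in CD8SP, 75.4 FPKM in CD4SP), Zyx, zyxin of adhesion sites (30.7 FPKM in CD8SP, 13.0 FPKM in CD4SP), Limk1, the kinase that inactivates cofilin (5.93 FPKM in CD8SP, 2.54 FPKM in CD4SP), Gmfg, a debranching factor of blood cells (8.93 FPKM in CD8SP, 4.25 FPKM in CD4SP), and Coro2a, a coronin (4.66 FPKM in CD8SP, 1.46 FPKM in CD4SP). After the shift Zyx and Coro2a remained, 2.78% of those tested beside 7.03% of all genes.

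Higher in CD4SP were Twf1, a twinfilin that binds monomers (4.498 FPKM in CD8SP, 10.04 FPKM in CD4SP), Diaph2, a formin (5.72 FPKM in CD8SP, 11.7 FPKM in CD4SP), Swap70, an actin- and Rac-binding protein (2.37 FPKM in CD8SP, 7.90 FPKM in CD4SP), Cap2, a relative of Cap1 (0.374 FPKM in CD8SP, 1.77 FPKM in CD4SP) and Myo1f, a class I myosin (listed at 0 in CD8SP, 1.47 FPKM in CD4SP). For Myo1f the exon-based value, which also takes in transcripts outside the gene sum, had the opposite direction, 2.86 FPKM in CD8SP cells and 1.19 FPKM in CD4SP cells. The most abundant genes of the list beside Cotl1 were Arhgap45, at 120 FPKM in CD8SP cells and 97.9 FPKM in CD4SP cells, and Myl12b, a myosin light chain, at 93.9 FPKM in CD8SP cells and 78.8 FPKM in CD4SP cells. Neither was called.

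Many actin genes are known targets of serum response factor, which binds the CArG box. The box was searched on both strands in RefSeq promoters of GRCm38.p6, from 250 bases before to 50 after the start. It was found in 3 of the 43 genes of the set with a promoter in the table (6.98%) and in 1.81% of all 27025 genes. The 3 boxes are shown in capitals with up to 10 bases on each side, at chr11:120348576-120348585 (Actg1, minus strand), chr14:20929171-20929180 (Vcl, plus strand) and chr6:113377863-113377872 (Arpc4, plus strand).
Actg1: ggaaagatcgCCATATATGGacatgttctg
Vcl: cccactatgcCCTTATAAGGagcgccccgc
Arpc4: CCTAATTTGGtgcccaacct
Actg1 and Arpc4 were not called, and Vcl was below the minimum for a call. Actg1 was at 33.1 FPKM in CD8SP cells and 30.6 FPKM in CD4SP cells, and Arpc4 was at 30.9 FPKM in CD8SP cells and 23.4 FPKM in CD4SP cells. A match is a description of the letters and not a site.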

How the data were processed

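The Illumina libraries had paired ends and lacked ribosomal RNA, per the labels' protocols. Their deposited files hold FPKM with an interval and a coverage value for each RefSeq or assembled transcript, as written by Cufflinks per the file headers, with the lanes of a lineage pooled. The submitters' processing notes name TopHat2 2.0.14, Cufflinks 2.1.1, RSEM 1.3.1, GSNAP, FastQC and Trimmomatic without roles. The long-read tables give, per the file headers, each isoform's length, exon number, structural category and, as a deposited percent, the share of A after its 3′ end. Their read counts are empty, and no read total is given in the sources used here. The median coverage per FPKM was 13.2 in CD8SP and 12.1 in CD4SP.

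Gene FPKM was the sum over RefSeq transcripts (30202 of 30604 matched a gene) and assembled spliced transcripts that share an intron with that gene only. The 50 genes, the further actin genes, the markers and the thresholds were chosen with earlier results of these data known. Named in full are the called genes, the 10 most abundant, those with called annotated events, Tpm3, Ablim1 and Actr3, the 5 with most long-read isoforms, and the called and the 3 most abundant genes of the further list. Log2 ratios are on the scale of FPKM plus 0.1, while folds are ratios of FPKM. Events count only transcripts that hold a form. The code for calls and events was tested on simulated data. A deposited table of a chained long-read catalogue was not used here, since its identifiers carry no gene names. Python 3.11.15, pandas 2.3.3 and scipy 1.17.1 were used.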

Additional observations from a re-analysis of the deposited data

Results flagged for a closer look

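The long-read tables also list isoforms antisense to genes of the set, which enter no comparison above. There were 23 in CD8SP cells, at 12 genes, of 2198 antisense isoforms at all genes. In CD4SP cells there were 26, at 14 genes, of 2172. Those at genes of the set were singled out as a signal outside the main measurement. Wasf2 had 5 in CD8SP cells and 3 in CD4SP cells, Actr2 had 4 in each, and Myh9 had 3 in CD8SP cells and 4 in CD4SP cells. Of the antisense isoforms at genes of the set, 22 in each library lay before genomic sequence with 60% or more A. A single exon was found in 16 in CD8SP cells and 18 in CD4SP cells. Of all long-read isoforms 60.1% in CD8SP cells and 64.0% in CD4SP cells lay before such sequence. Without the antisense and intergenic isoforms the shares were lower, at 47.4% in CD8SP cells and 51.4% in CD4SP cells. Such sequence was thus more frequent among antisense and intergenic isoforms than among the others. The share over all antisense isoforms alone was not counted, and the part of such sequence in the counts at genes of the set was not tested.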

How the results depend on the processing

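No paired analysis was possible because the short-read files pool the lanes, and no replicate could be left out for the same reason. Shifting the ratios to a median of 0 left 1 gene of the set higher in CD8SP in place of 3, a median of 0.10 in place of 0.32, and 2 genes of the further list in place of 5. The exon-based value also left 1 gene of the set higher in CD8SP and 2 of the further list higher in CD4SP in place of 5. With no minimum FPKM, Vcl joined Myo10 to make 2 higher in CD4SP, and the further list had 8. A minimum of 5 FPKM gave 3 there. A pseudocount of 1 gave 2 genes of the further list higher in CD8SP. With RefSeq transcripts only, the further list had 8 higher in CD8SP and 2 higher in CD4SP. A threshold of 10 points called 8 annotated events and one of 30 points called 3, in place of 5. RefSeq transcripts only, and equally assembled transcripts in both files only, reversed exon 15 of Ablim1 to 40.2 points. They also set the 192-base form of the Actr3 intron to 0 points, since its spliced form drew its FPKM from assembled transcripts. The set's share of long-read isoforms was 1.85% in CD8SP cells and 1.78% in CD4SP cells over multi-exon isoforms, and 1.72% in CD8SP cells and 1.78% in CD4SP cells without those before 60% or more A. The signal over an exon or intron relative to its neighbours was an alternative chosen after seeing the data, and kept the direction and the call of the Ablim1 exon 15, Tpm3 exon 8 and Actr3 events. Rdx has no such value. For single genes, 21 of 350 log2 ratios under the alternatives had the opposite sign, 10 of them after the shift, 8 with RefSeq transcripts only and 3 by the exon-based value. Of these 21, Ablim1 at -3.87 with RefSeq transcripts only was past the threshold. The deposited coverage limits the precision of Myo10, at 6.45 in CD8SP cells and 69.9 in CD4SP cells, and of Vcl, at 0 in CD8SP cells and 4.41 in CD4SP cells.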
